A study of Mus musculus with 6 samples.

Results

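RGS6 and the proteins it works with form the R7 group of regulators of G protein signalling (RGS proteins). They were followed here as 6 genes: Rgs6, Rgs7, Rgs9 and Rgs11, which encode the R7 RGS proteins, Gnb5, which encodes their beta subunit, and Rgs7bp, which encodes a membrane anchor. Their members on the array are the 12 probe sets that the platform annotation gives to one of these genes alone, of 45037 probe sets in all, and 0 probe sets named a member together with another gene. The group was chosen by the difference between mutant and wild-type arrays, on which Rgs6 was already known to be among the genes with the largest fall, so the values of the 12 probe sets in that comparison are a description and carry no test.

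RNA was measured on 6 single-colour Affymetrix arrays of mouse dorsal telencephalon at E14.5. In the embryo this region gives rise to the cerebral cortex. The 3 conditional knockout (cKO) arrays hold RNA of embryos lacking the histone methyltransferase ESET, encoded by Setdb1, under a Cre recombinase named Emx2Cre. The 3 wild-type (WT) arrays hold RNA of embryos labelled wt, and the comparison asks which transcripts differ between these genotypes. Both groups are on a C57BL\6 background and labelled male, the design text gives 3 embryos of each genotype, and arrays are named here by genotype and number. Emx2 is a gene of dorsal forebrain progenitors, so a Cre driven from it acts in that lineage and other cells of the dissected tissue would keep Setdb1. The sources used here do not say if Cre was also present in WT embryos, so the Cre allele and the deletion cannot be told apart.

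R7 RGS proteins speed up the hydrolysis of GTP by alpha subunits of the Gi/o class and so shorten the signal of receptors coupled to them. Each R7 RGS protein binds the beta subunit encoded by Gnb5 through a domain that resembles a G protein gamma subunit, and without its partner each protein of the pair is unstable. A DEP domain at the other end binds an anchor, the R7-binding protein of Rgs7bp in neurons or the protein of Rgs9bp in the retina, which brings the complex to the membrane. RGS9 is best known from photoreceptors and striatal neurons, RGS11 from retinal bipolar cells, RGS7 from neurons across the brain, and RGS6 from heart and brain, where it limits the opening of GIRK potassium channels.

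The promoters of 5 of the 6 genes were found in a RefSeq table of assembly GRCm38.p6, all but that of Rgs11. Each entry holds 250 bases before and 50 after the gene's start. The 3 R7 RGS promoters are shown, Rgs6 at chr12:82617249-82617548 on the plus strand, Rgs7 at chr1:175492496-175492795 on the minus strand and Rgs9 at chr11:109298132-109298431 on the minus strand, to set the CpG content of the gene with the lower signal beside that of its relatives. Capitals mark the dinucleotide CG, which reads the same on both strands.
Rgs6 promoter: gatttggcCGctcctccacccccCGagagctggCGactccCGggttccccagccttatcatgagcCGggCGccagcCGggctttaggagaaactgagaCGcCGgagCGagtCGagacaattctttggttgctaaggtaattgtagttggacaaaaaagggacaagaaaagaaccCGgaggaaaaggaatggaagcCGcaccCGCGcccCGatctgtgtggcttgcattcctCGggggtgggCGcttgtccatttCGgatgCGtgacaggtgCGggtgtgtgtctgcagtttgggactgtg
Rgs7 promoter: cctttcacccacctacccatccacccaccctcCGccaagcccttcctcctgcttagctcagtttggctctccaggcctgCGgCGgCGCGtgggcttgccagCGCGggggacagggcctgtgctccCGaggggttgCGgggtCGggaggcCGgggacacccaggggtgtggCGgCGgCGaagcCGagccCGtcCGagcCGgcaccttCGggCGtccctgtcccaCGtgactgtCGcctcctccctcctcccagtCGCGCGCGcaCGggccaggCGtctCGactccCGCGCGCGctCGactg
Rgs9 promoter: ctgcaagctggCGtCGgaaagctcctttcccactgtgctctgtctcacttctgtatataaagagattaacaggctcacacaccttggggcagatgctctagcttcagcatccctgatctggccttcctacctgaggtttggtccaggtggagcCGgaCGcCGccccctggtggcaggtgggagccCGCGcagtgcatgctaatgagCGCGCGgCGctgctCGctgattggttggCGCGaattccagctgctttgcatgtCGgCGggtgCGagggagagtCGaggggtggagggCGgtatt

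The Rgs6 window held 21 CG dinucleotides, and 24.8% of the 32841 promoters of this length held at least as many. Rgs7 held 34, which 7.73% of promoters reached, and Rgs9 held 19, which 28.1% reached. Gnb5 and Rgs7bp held 5 each, below the median of 7, and 62.0% of promoters held at least as many. All 3 R7 RGS promoters thus lay above the median in CG content, and the promoters of the partner genes below it. At least 1 CG was present in 94.6% of promoters. The arrays measure RNA, so nothing was read on methylation or histone marks at these promoters.

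The deposited values are intensities on a linear scale. Median intensities ran from 98.7 to 119 on cKO arrays and from 91.1 to 113 on WT arrays, and on each array between 16.1% and 20.3% of readings were under 16. Dorsal telencephalon markers were bright. Of 10 listed genes 9 were measured, with means from 964 for Emx2 to 18180 for Neurod6. The eye markers, relevant because R7 genes are abundant in retina, all had means of 43.3 or less over 8 measured genes. The arrays numbered 3 stood apart in both groups. The summed intensity of 8 erythroid genes was 73962 on cKO 3 and 69349 on WT 3, whereas the remaining 4 arrays had between 11212 and 17175. WT 3 had a Y-linked Kdm5d intensity of 10.2 and an Xist intensity of 17294, against its male label, and cKO 3 had both signals, at 663 and 8811. Neither array thus reads as RNA of 1 male embryo, as labelled. Whether they are mislabelled or hold RNA of more than 1 embryo is not known. The sum of 8 meninges and mesenchyme genes was 2153 on cKO 3, whereas the remaining 5 arrays had between 320 and 679.

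Setdb1, the targeted gene, gave on its brightest probe set 704, 696 and 499.9 on the cKO arrays and 1162, 1185 and 1033 on the WT arrays. The cKO arrays all lay below the WT arrays. Its other probe sets read 10.6, 23.8 and 34.2 in cKO and 56.5, 70.3 and 74.8 in WT on 1458215_at, again without overlap, and 34.0, 17.9 and 48.7 in cKO and 35.4, 40.7 and 78.3 in WT on 1416670_at, with overlap. Since the deleted exons are not named in the labels, these readings may lie outside them.

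Rgs6 was the member with the largest difference. Probe set 1452399_at read 6.70, 2.23 and 12.8 on cKO 1, 2 and 3, and 70.5, 57.5 and 105 on WT 1, 2 and 3. Every cKO array lay below every WT array, and cKO 3 and WT 3 were the highest of their groups. The means were 7.25 ± 5.31 in cKO and 77.8 ± 24.7 in WT (SD, n = 3 each). Rgs6 signal was modest even in WT, where between 42.2% and 48.9% of all readings on the same array were dimmer. In cKO between 3.71% and 14.0% were dimmer, which places it among the lowest readings of each array. Such shares describe how dim a probe set is, and do not rank amounts of RNA between genes. The log2 fold change, taken here as the difference of the means of log2(intensity + 16), cKO minus WT, was -2.01 (SE 0.26). Without both arrays numbered 3 it was -1.97. Since the cKO readings lie below the added 16, that constant sets the size of the fold change, which came to -3.45 with 1 added and to -0.98 with 64 added. In a dissected tissue, fewer cells of a type and less RNA per cell cannot be told apart.

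A second Rgs6 probe set, 1427340_at, is listed under the same GenBank record as the first, so the pair is not independent. It read 3.12, 1.77 and 4.72 on cKO 1, 2 and 3, and 31.5, 6.20 and 28.8 on WT 1, 2 and 3. The groups again did not overlap, though WT 2 came close to cKO 3. At most 6.18% of readings were dimmer on a cKO array and at most 28.8% on a WT array. The log2 fold change was -0.92 (SE 0.31).

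**Figure D1:**
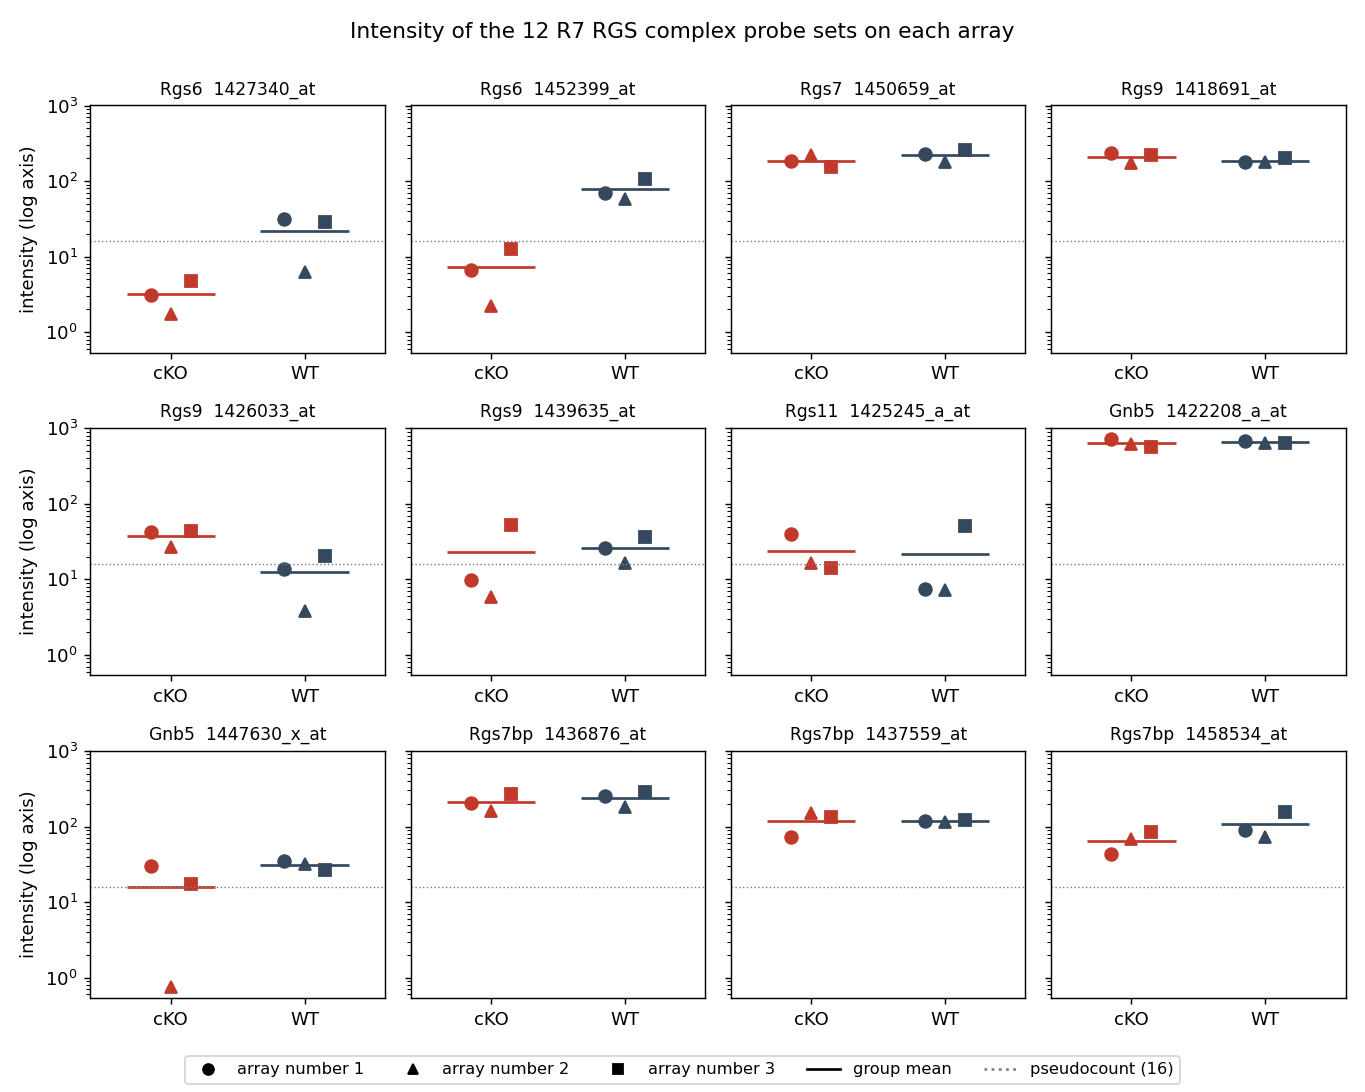
Intensity (log axis) of each of the 12 probe sets on the 3 cKO and 3 WT arrays, with symbols for the array number, bars for group means and a dotted line at the added constant of 16. On 1452399_at of Rgs6 the cKO arrays sit between 2.23 and 12.8 and the WT arrays between 57.5 and 105, while for Gnb5 on 1422208_a_at both groups lie between 567 and 716.

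The paralogue Rgs7, on its single probe set, did not share the separation seen for Rgs6. It read 185, 223 and 152 on the cKO arrays and 227, 177 and 258 on the WT arrays. The groups overlapped, and the log2 fold change was -0.22 (SE 0.21).

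Rgs9 was given by 3 probe sets that did not move together. The brightest, 1418691_at, read 232, 175 and 224 in cKO and 178, 182 and 200.4 in WT, with overlapping groups and a log2 fold change of 0.15 (SE 0.16). The dim probe set 1426033_at read 41.9, 27.2 and 43.5 in cKO and 13.6, 3.78 and 20.4 in WT. It was the one member whose cKO arrays all lay above the WT arrays, with a log2 fold change of 0.93 (SE 0.27) that 1 and 64 added in place of 16 turned to 1.72 and 0.41. At most 33.3% of all readings on an array were dimmer. The third, 1439635_at, read 9.88, 5.76 and 52.9 in cKO and 26.4, 16.4 and 36.0 in WT. Its highest reading was on cKO 3, the array with raised erythroid and meningeal signal, and the groups overlapped.

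Rgs11 was dim in both groups, where between 15.03% and 32.4% of readings were dimmer on cKO arrays and between 11.5% and 36.0% on WT arrays. Its probe set read 40.0, 16.5 and 14.3 in cKO and 7.47, 7.19 and 51.0 in WT, so 1 array of each group stood well above the other two. The log2 fold change was 0.20 (SE 0.47), and the sign changed when single arrays were left out, between -0.08 and 0.71.

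Gnb5, the obligate partner of all R7 RGS proteins, had nearly equal group means on its bright probe set. Probe set 1422208_a_at read 716, 628 and 567 in cKO and 687, 632 and 647 in WT. The groups overlapped, with means of 637 ± 74.7 in cKO and 656 ± 28.6 in WT (SD, n = 3 each) and a log2 fold change of -0.05 (SE 0.15). The dim second probe set, 1447630_x_at, whose name ending marks probes that can read other sequences, gave 29.8, 0.76 and 17.2 in cKO and 35.0, 32.2 and 26.6 in WT. These groups overlapped, and the log2 fold change was -0.68 (SE 0.36), against -0.27 without cKO 2 and -0.998 without cKO 1.

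Rgs7bp, the neuronal anchor, had 3 probe sets. Probe set 1436876_at read 205, 159 and 270.3 in cKO and 253, 179 and 289 in WT, with a log2 fold change of -0.18 (SE 0.25). Probe set 1437559_at read 72.8, 149 and 132 in cKO and 117, 115 and 121 in WT, with a log2 fold change of -0.04 (SE 0.25). On both, the groups overlapped and the cKO arrays enclosed or mixed with the WT arrays. Probe set 1458534_at read 42.9, 67.9 and 85.1 in cKO and 89.1, 72.2 and 158 in WT. Its groups overlapped only through cKO 3 and WT 2, and the log2 fold change was -0.56 (SE 0.32).

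Across the 12 probe sets, 9 had a negative and 3 a positive log2 fold change, with a median of -0.20 beside 0.02 for all probe sets. This count and median include Rgs6, which was chosen for its fall, so no direction of the group is read from them. The groups did not overlap downward for 2, both of Rgs6, and upward for 1, of Rgs9. Among all probe sets, 6.07% lay lower in cKO without overlap and 7.47% higher. Of the 10 probe sets other than Rgs6, 7 were lower and 3 higher, and log2 fold changes ran from -0.68 to 0.93. In limma's fit over all probe sets, with p-values adjusted by Benjamini-Hochberg and called under 0.05, 0 of the 12 were called, where 0.275% of all probe sets were. In the fit of the gene table, which takes the brightest probe set of each of 18193 genes, 1 of the 6 genes was called lower and 5 were not called, where 0.242% of all genes were called lower. The called gene is Rgs6, which was chosen for this difference, and nothing is read from the count. Whether the difference of Rgs6 itself differs from that of the other members was not tested.

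**Figure D2:**
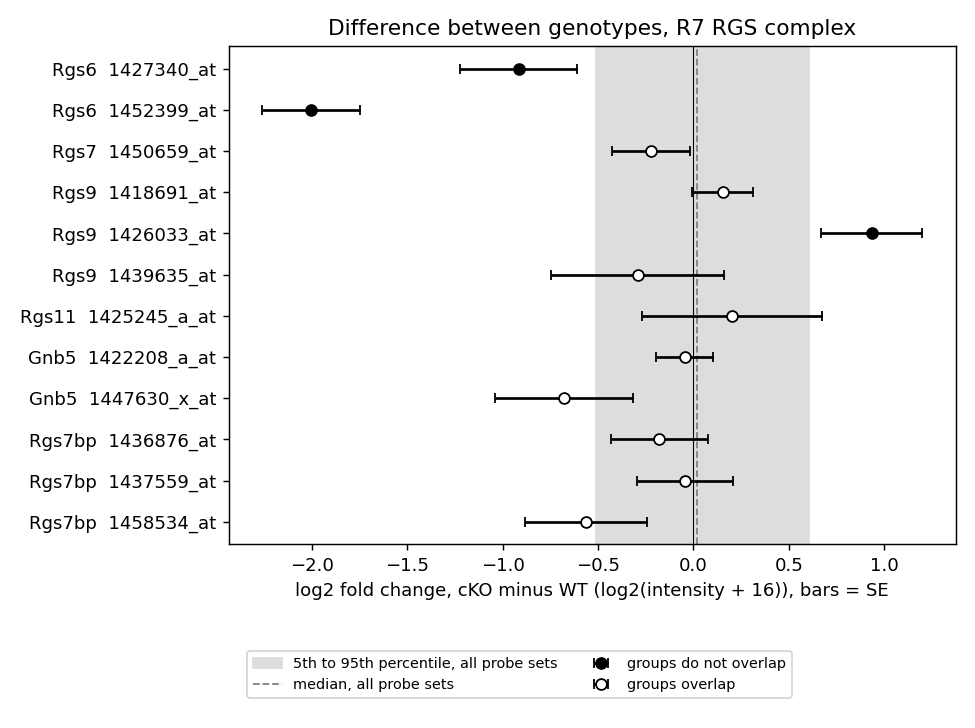
Log2 fold change, cKO minus WT, of the 12 probe sets with SE bars. Filled points mark groups that do not overlap, and the grey band holds the middle of all probe sets, from -0.51 to 0.60 (5th to 95th percentile). Left of the band lie both Rgs6 probe sets at -2.01 and -0.92, Gnb5 1447630_x_at at -0.68 and Rgs7bp 1458534_at at -0.56, and right of it lies the dim Rgs9 probe set at 0.93.

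Among 11164 named genes with a mean WT intensity of at least 64, the 5 whose log2 values over the 6 arrays were most like those of Rgs6 on 1452399_at were Emx2, Cd47, Diras2, Arg2 and Pid1. Pearson correlations ran from 0.994 to 0.998 over 6 arrays, which fall into the genotype groups, so the correlation is mostly a reading of the same group difference. Emx2, a homeobox gene of dorsal forebrain progenitors after which the Cre line is named, read 674, 647 and 743 in cKO and 1197, 1129 and 1395 in WT. Diras2, a small GTPase of the Ras family, read 161, 143 and 177 in cKO and 447, 395 and 543 in WT. Like Rgs6, both were lowest on array 2 and highest on array 3 within each genotype. The median intensities of whole arrays had the same order, with 101, 98.7 and 119 in cKO and 103, 91.1 and 113 in WT. The order is thus not particular to these genes, and the part of array brightness in it was not tested. Arg2, a mitochondrial arginase, averaged 115 in cKO and 307 in WT, and Pid1, an adaptor protein, 367 in cKO and 812 in WT. Cd47, a ligand that inhibits phagocytosis, had the smallest difference of the 5, with 1652 in cKO and 2249 in WT. Since these genes were picked for their likeness, their differences are a description.

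**Figure D3:**
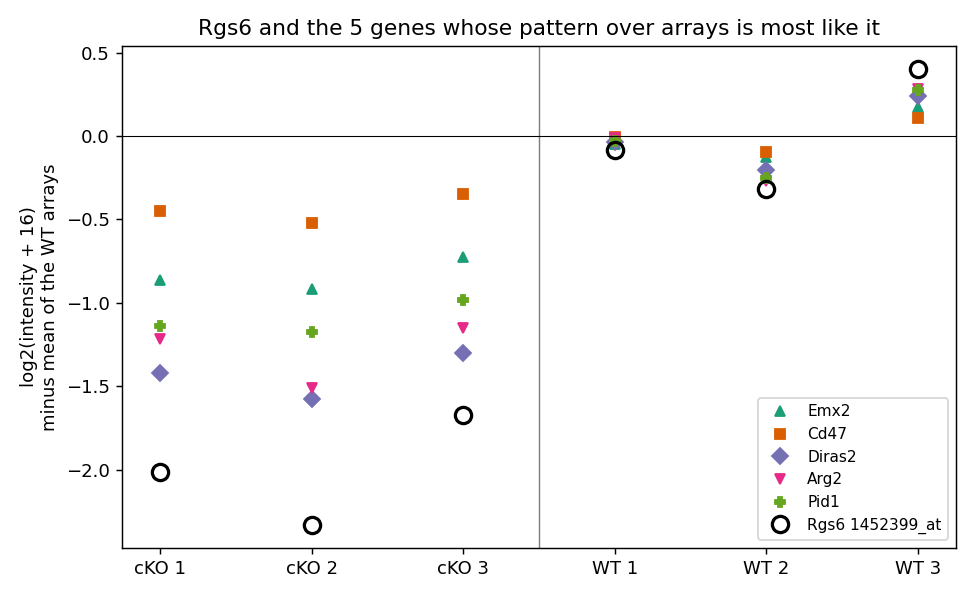
Log2(intensity + 16) of Rgs6 and of the 5 genes most like it on each array, each gene relative to its own mean over the WT arrays. All 6 lie below 0 on the 3 cKO arrays, and each is highest on WT 3.

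Markers of Cajal-Retzius cells, early neurons of the cortical surface, were also lower in cKO. Of 9 measured genes 8 were lower, 6 of them without overlap, where 7.64% of all genes lay lower without overlap, and their summed intensity was between 3582 and 4527 on cKO arrays and between 7866 and 8326 on WT arrays. Reln, which encodes reelin, made up most of this sum on every array, with 2864, 2507 and 3197 in cKO and 6286, 6198 and 6552 in WT. Lhx1, a homeobox gene of these cells, was close to 0 on 1 array, with 2.27, 15.9 and 58.5 in cKO and 63.3, 86.6 and 159 in WT. The sum of 12 pan-neuronal genes was between 75340 and 84478 in cKO and between 81810 and 97253 in WT, so the groups overlapped. Gene by gene, 11 of the 12 were lower and 1 higher, with a median log2 fold change of -0.15. Of those lower, 3 were without overlap, beside the same 7.64% of all genes. The part of either cell type in the Rgs6 reading was not tested.

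The genes around the R7 complex were described from 8 lists with 93 genes, of which 85 were measured. By limma 2 of them fell and 0 rose past the threshold over all genes, which is 2.35% fallen where 0.242% of all genes were. With the unadjusted p under 0.05 stood 14 genes lower and 5 higher in cKO, or 16.5% and 5.88%, where 4.39% and 5.17% of all genes were. The median log2 fold change was -0.04, beside 0.01 for all genes. The lists were not tested as sets.

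The other anchors and receptor partners of R7 proteins were dim in both groups. Rgs9bp, the retinal anchor, read 34.9, 29.3 and 5.23 in cKO and 44.1, 38.5 and 43.8 in WT, without overlap and with a log2 fold change of -0.67 (SE 0.33) that did not pass (limma adjusted p = 0.623). It rested on cKO 3, without which it was -0.27, and it was -0.25 without both arrays numbered 3. Gpr179, an orphan receptor that holds R7 complexes in retinal bipolar cells, had means of 8.23 in cKO and 6.04 in WT. Of these 3 genes, Gpr158 included, 1 was lower and 2 higher, and limma called 0, with 0 at an unadjusted p under 0.05 as well.

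Of 15 measured RGS proteins outside the R7 group 12 were lower, with a median log2 fold change of -0.23, and 1 fell past the threshold. This was Rgs8, a small RGS protein of the R4 group that also acts on Gi/o. It read 165, 175 and 222 on cKO 1, 2 and 3, and 497, 383 and 488 on WT 1, 2 and 3, and the groups were far apart. Its log2 fold change was -1.22 (SE 0.17, limma adjusted p = 0.0492). With any 1 array left out it lay between -1.34 and -1.14 and did not pass, with adjusted p from 0.0748 without cKO 3 to 0.194 without WT 1, and without both arrays numbered 3 it was -1.28 (adjusted p = 0.195). It passed in 6 of 17 alternatives, with adjusted p from 0.00676 to 0.195, and in the fit over all probe sets it did not (limma adjusted p = 0.0886). Rgs5, a regulator known from pericytes, was at -0.60 (SE 0.16, limma adjusted p = 0.260), with 817, 764 and 636 in cKO and 1234, 1200 and 957 in WT. The 8 endothelial markers, cells that pericytes accompany, summed to between 1303 and 1456 in cKO and between 1661 and 1822 in WT, with 7 of 8 lower and 4 of them without overlap, beside the same 7.64% of all genes. Their part in the Rgs5 reading was not tested.

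Among the alpha subunits, which include the substrates of RGS proteins, 9 of 15 were lower and 1 fell. Gnal encodes the alpha subunit of Golf, which stimulates adenylyl cyclase in olfactory and striatal neurons and belongs to the Gs class, outside the usual R7 substrates. It read 173, 170.0 and 233 on the cKO arrays and 595, 541 and 556 on the WT arrays, with no overlap. The log2 fold change was -1.49 (SE 0.15, limma adjusted p = 0.0169). The call held without cKO 3 (adjusted p = 0.0250) and was lost in the other 5 fits without 1 array. Adjusted p was 0.0976 without cKO 1, 0.0854 without cKO 2, 0.108 without WT 1, 0.0747 without WT 2 and 0.0696 without WT 3. The fold change stayed between -1.63 and -1.42 in these fits, and was -1.64 without both arrays numbered 3 (adjusted p = 0.136). Gnal passed in 10 of 17 alternatives, with adjusted p from 0.00152 to 0.136.

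Gnal had further probe sets. One, 1442021_at, read 110, 143 and 308 in cKO and 388, 309 and 719 in WT, with groups that just missed each other and a log2 fold change of -1.30 (SE 0.44). The other was at -0.13 (SE 0.35) with overlapping groups. The 13 markers of ventral telencephalon and striatum, where Gnal is known to be expressed, summed to between 4592 and 5009 in cKO and between 4054 and 5645 in WT, and 5 were lower and 8 higher. The genes of that list given next were named after their values were seen. Drd1, of striatal neurons, read 199, 155 and 202 in cKO and 322, 456 and 308 in WT, lower without overlap. Ppp1r1b, also of striatal neurons, read 134, 86.8 and 251 in cKO and 322, 163 and 306 in WT, with overlap. Gad1 read 1724, 1380 and 1284 in cKO and 958, 1102 and 1044 in WT, higher without overlap, as were Nkx2-1 and Lhx6. Isl1 at -0.50 and Ebf1 at 0.22 had overlapping groups. The part of these markers in the Gnal reading was not tested. Gna14, an alpha subunit of the Gq class, read 52.5, 28.6 and 46.8 in cKO and 110, 124 and 116 in WT. At -1.20 (SE 0.19) it came near the threshold without passing it (limma adjusted p = 0.0639), it passed with 64 added in place of 16 (adjusted p = 0.0291, of a range from 0.0291 to 0.282 over its alternatives), and its dim other probe sets had overlapping groups.

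**Figure D4:**
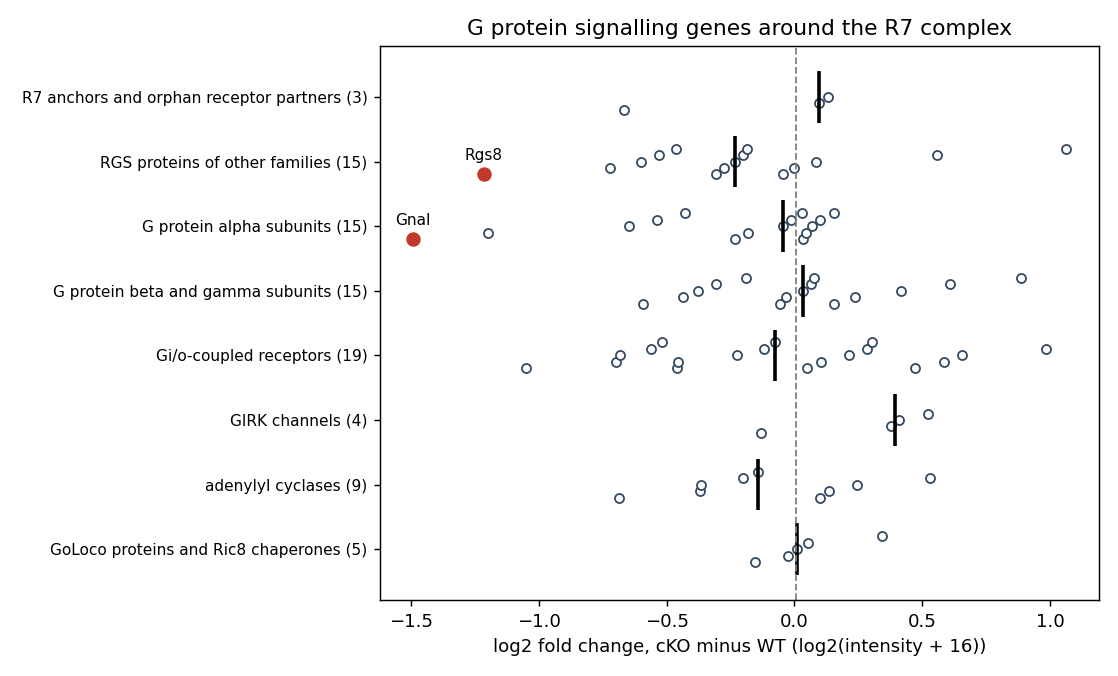
Log2 fold change, cKO minus WT, of the 85 measured genes of 8 lists, with the number measured beside each list, black bars at list medians and a dashed line at the median of all genes. Filled red points are the 2 genes past the threshold, Gnal at -1.49 and Rgs8 at -1.22.

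Beta and gamma subunits, receptors, channels and cyclases held 0 calls by limma. Of 15 beta and gamma genes 7 were lower and 8 higher, and 2 of each direction had an unadjusted p under 0.05. Gng11, a gamma subunit, was at -0.59 (SE 0.16, adjusted p = 0.264) and Gngt2, the gamma subunit of cones, at 0.61 (SE 0.15, adjusted p = 0.213), in limma's fit. Of 19 receptors coupled to Gi/o, 10 were lower and 9 higher, and those with an unadjusted p under 0.05 were 5 downward and 2 upward. The metabotropic glutamate receptor Grm3 read 59.0, 58.8 and 72.6 in cKO and 105, 127 and 107 in WT, at -0.70 (SE 0.14, limma adjusted p = 0.126). Its relative Grm7 was at -0.68 (SE 0.20, limma adjusted p = 0.297). Of the dim other probe sets of Grm7, 1458861_at was higher in cKO without overlap, at 0.37 (SE 0.16), and 1459532_at was at -0.15 with overlap.

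Of the 4 genes of GIRK channels, the effectors that RGS6 is known to restrain in heart, 3 were higher and 1 lower, with a median of 0.39 and 0 at an unadjusted p under 0.05. Kcnj5 averaged 53.0 in cKO and 33.4 in WT, without overlap (log2 fold change 0.52, SE 0.23, limma adjusted p = 0.552). A second Kcnj5 probe set, 1421762_at, was at 0.12 (SE 0.46) with overlapping groups. Kcnj9 averaged 18.4 in cKO and 8.98 in WT on the probe set that represents it (log2 fold change 0.41, SE 0.27), with overlapping groups. Its other probe sets, also dim, were at -0.14, -0.08 and -0.22 with overlapping groups, so its sign depended on the probe set. Of 9 adenylyl cyclases, some of which Gi/o inhibits, 5 were lower and 4 higher, and 1 had an unadjusted p under 0.05. This was Adcy9, at -0.68 (SE 0.18, limma adjusted p = 0.243), with 162, 137 and 106 in cKO and 257, 207 and 212 in WT. Its other 3 probe sets were at -0.45 without overlap and at -0.19 and -0.21 with overlap, and the one at -0.19 stands for the gene when the widest interquartile range decides. Adcy5, the main cyclase of striatal neurons, was at -0.36 (SE 0.18, limma adjusted p = 0.604), with overlapping groups. Further probe sets of this gene were at 0.39, -0.01 and -0.22, also with overlap, so its sign depended on the probe set.

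The GoLoco proteins and Ric8 chaperones, which handle alpha subunits in a receptor-independent way, held 0 calls by limma and 0 genes at an unadjusted p under 0.05. On the brightest probe set of each of the 5 genes the log2 fold changes ran from -0.15 to 0.34. Gpsm2, which orients the mitotic spindle of progenitors, averaged 918 ± 109 in cKO and 1027 ± 159 in WT (SD, n = 3 each). Ric8a, a chaperone of alpha subunits, averaged 1468 ± 426 in cKO and 1169 ± 391 in WT (log2 fold change 0.34, SE 0.34, and 0.0313 without WT 3). Another of its probe sets, 1438950_x_at, read 97.98, 77.2 and 115 in cKO and 14.99, 44.0 and 55.7 in WT, without overlap, and did not pass over all probe sets (log2 fold change 1.13, SE 0.33, limma adjusted p = 0.418).

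**Figure D5:**
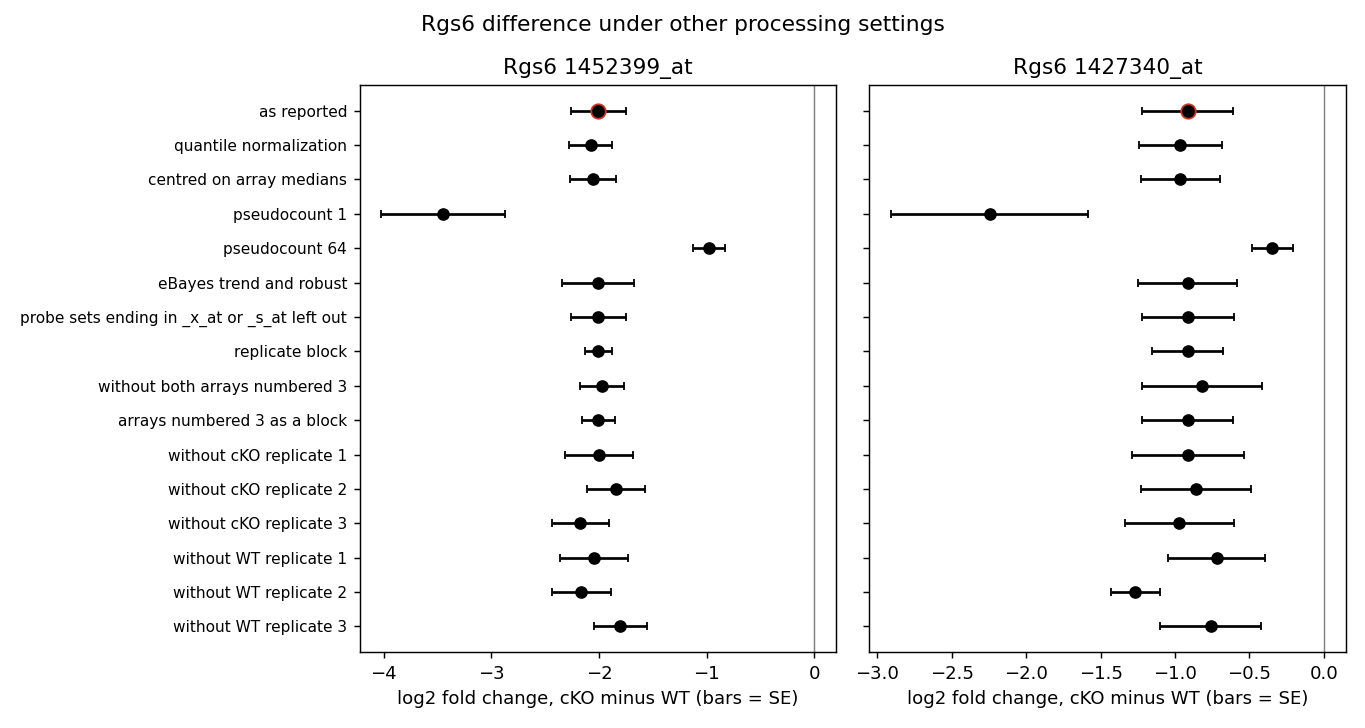
Log2 fold change of both Rgs6 probe sets, cKO minus WT, with SE bars, as reported (red) and under each other processing setting. On 1452399_at the value stays between -2.17 and -1.80 when 1 array is left out, and moves to -3.45 and -0.98 when the added constant is 1 or 64.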

How the data were processed

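For each array 250 ng of total RNA was turned into biotinylated cRNA, per the labels' protocols. The deposited table gives 1 linear intensity per probe set and array, which the authors made with the Affymetrix Expression Console, per the submitters' processing notes. The sources used here give neither its version nor its summary algorithm, and no detection calls were used. No further normalization and no filter on low values were applied.

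Log2(intensity + 16) was modelled on genotype alone with limma 3.58.1 (lmFit and eBayes) in R 4.3.3, once over all 45037 probe sets and once over a gene table. The table takes, of the 34945 probe sets given to 1 gene, the brightest of each of 18193 genes. P-values were adjusted by Benjamini-Hochberg over each whole table, with a threshold of 0.05. Errors of fold changes are moderated standard errors (SE), and those of members come from the fit over all probe sets. The 3 arrays per group limit the precision. P-values set the genotype difference against the spread between these arrays, moderated by limma over all probe sets or genes. The fit was tested on simulated data.

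The members, the gene lists and the naming rule were chosen with earlier results of these data known. The rule names all probe sets of the members, Setdb1, pathway genes past the threshold, the 2 genes of each pathway list with the smallest p, and the 5 genes most correlated with Rgs6. Marker genes serve as checks. Promoters come from RefSeq, assembly GRCm38.p6. Whether replicate numbers pair the arrays was checked by correlating deviations from group means. The alternatives were quantile normalization, centring on medians, an added constant of 1 or 64, trended and robust eBayes, a filter on dim probe sets, leaving out probe sets ending in _x_at or _s_at, a replicate block, leaving out arrays singly or both numbered 3, those arrays as a block, and another choice of representative probe set.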

Additional observations from a re-analysis of the deposited data

How the results depend on the processing

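Rgs6 stayed lower in cKO on both probe sets in each of the 15 alternatives that kept it, and leaving out probe sets below the median removed it. With pseudocounts of 1 and 64 it came to -3.45 and -0.98 on 1452399_at, and to -2.25 and -0.35 on 1427340_at. In fits that left out 1 array the first ran from -2.17 to -1.80 and the second from -1.27 to -0.72. Of the 10 other member probe sets, 5 kept their sign in every alternative. The count of probe sets called, 124, became 48 and 205 with pseudocounts of 1 and 64, 257 with eBayes trend and robust settings, 252 without probe sets or genes below the median, 8 without both arrays numbered 3, and between 19 and 36 with 1 array left out. The count of genes called, 114, became 58, 216, 244, 187 and 8 in the same settings, and between 26 and 53 with 1 array left out. The 2 pathway genes called became 3 with a pseudocount of 64, where Gna14 joined them, 1 with a pseudocount of 1, without probe sets ending in _x_at or _s_at, and with the representative probe set chosen by interquartile range, 0 without both arrays numbered 3, and 0 or 1 with 1 array left out. With the replicate block, 7 probe sets, 17 genes and 0 pathway genes were called. Same-numbered arrays had correlations of deviations of 0.0787, 0.194 and 0.41, and differently numbered arrays had between -0.307 and 0.164. Both cKO 2 and cKO 3 correlated best with the WT array of the same number, and cKO 1 with WT 2, at 0.164. Whether the numbers pair the arrays is not known. The fit as reported does not use them, so an effect shared by same-numbered arrays is not taken out of it. Kcnj9 reversed to -0.0569 with a pseudocount of 64 and to -0.142 with the representative chosen by interquartile range. In both settings another of its dim probe sets, 1426115_a_at, stood for the gene. Gpsm2 reversed to 0.0291 without both arrays numbered 3. Fits on fewer arrays have less power, and the cause of the other changes was not tested. The readings of Rgs6 in cKO, and of Rgs9bp, Rgs11 and Kcnj9 in both groups, are so low that the added constant sets the size of any difference.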
